A study of Arabidopsis thaliana with 4 samples.

Results

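AT3G02480, AT2G21820 and AT5G07330 are 3 protein-coding Arabidopsis thaliana genes, each read by 1 probe set on Affymetrix arrays, out of 13286 genes with a named probe set and 22746 probe sets in all. They were chosen by their measured wild-type signals: the wild type after high light had more than 14-fold the signal of the untreated wild type. A second reason was that they are little studied in leaves. Their working name, desiccation and seed-type genes, could not be checked against annotation: the gene tables used here give these loci no symbol and no function, so they are called by their locus names. Each of the 3 probe sets is assigned to 1 gene.

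The plants were 3 weeks old and in the Col-0 background, and the material is labelled as young seedling. The 4 groups were erf6-1 after high light, erf6-1 untreated, wild type after high light and wild type untreated. High light (HL) was 2 h at 2000 µmol m-2 s-1, and the light given to untreated plants is not stated in the labels. erf6-1 is a mutant of the ethylene response factor gene ERF6, and the study asked which genes ERF6 controls under oxidative stress and high light. Each group had 1 array. No difference below could therefore be set against replicate variation, and no p-value is given. How many plants went into each RNA is not given, and fewer cells of a type cannot be told apart from less RNA per cell in such tissue.

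Desiccation-type genes are best known from maturing seeds, where late embryogenesis abundant (LEA) proteins and dehydrins accumulate as the embryo dries. These are very hydrophilic proteins thought to protect membranes and enzymes when water is short. Leaves make many of them in drought, cold or salt, in part through abscisic acid (ABA), whose receptors block phosphatases and so free kinases that activate bZIP transcription factors.

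All 3 genes had higher signals on both high-light arrays than on either untreated array. AT3G02480 had a signal of 29064 in erf6-1 after high light and 54.6 in untreated erf6-1, and 21724 in wild type after high light and 386.0 in untreated wild type. These are MAS5 signals, a linear brightness scale in which each array was scaled to about the same trimmed mean. AT2G21820 had a signal of 3437 in high-light erf6-1 and 749.8 in untreated erf6-1, and 3883 in high-light wild type and 151.0 in untreated wild type. AT5G07330 had a signal of 2812 in high-light erf6-1 and 29.1 in untreated erf6-1, and 2552 in high-light wild type and 181.9 in untreated wild type. For each gene the lower of the high-light signals lay above the higher of the untreated signals, and the untreated array that was lower was erf6-1 for AT3G02480 and AT5G07330 but wild type for AT2G21820.

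**Figure D1:**
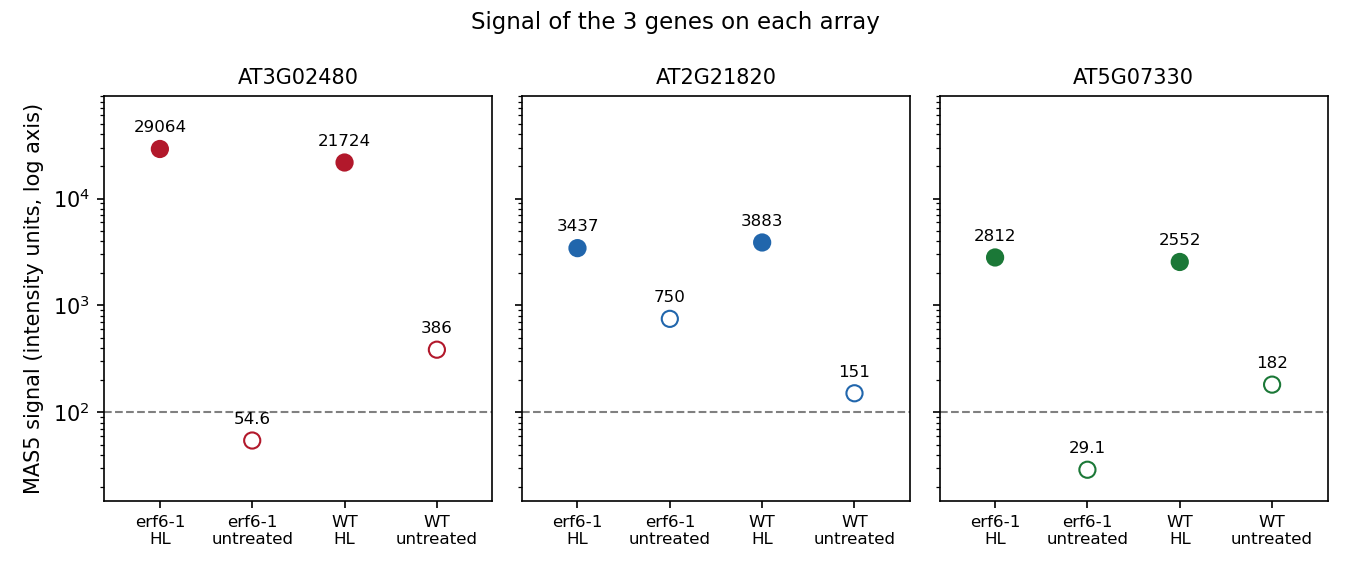
MAS5 signal (intensity units, log axis) of AT3G02480, AT2G21820 and AT5G07330 on the 4 arrays, 1 point per array, filled for high light and open for untreated, with the floor of 100 as a dashed line. The high-light points of each gene lie together, at 29064 and 21724 for AT3G02480, while its untreated points lie apart, at 54.6 and 386.0, and those of erf6-1 for AT3G02480 and AT5G07330 are under the floor.

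Signals were raised to a floor of 100, the 30th percentile of all values, before folds were taken, so a fold against a lower signal is a bound. The choice of the genes used the wild-type response, which is given as a description. In wild type, AT3G02480 was 56.3-fold higher after high light than untreated, AT2G21820 25.7-fold and AT5G07330 14.03-fold. Among the 17173 probe sets whose brightest array reached the overall median signal of 248.6, 29 were at least 14-fold higher, or 0.169%. AT5G07330 was the named gene just inside the limit, next to AT1G20070 at 14.2-fold. With floored signals, AT1G79510 at 13.9-fold and AT5G64250 at 12.6-fold came next below the limit. In both of these the untreated wild-type signal was under the floor, at 80.5 and 92.4. Their folds are thus lower bounds, which do not place the genes under 14-fold. All 3 members were above the floor in that array.

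The choice set no threshold on the erf6-1 response. It was made with earlier results of these data known, among them the high erf6-1 signal of AT3G02480. AT3G02480 was at least 291-fold higher in erf6-1 after high light than untreated, the highest value of all 17173 probe sets. AT5G07330 was at least 28.1-fold higher, which ranked 9 of 17173. AT2G21820 was 4.58-fold higher and ranked 538. All 3 were thus past 2-fold, a threshold that 16.7% of probe sets passed upward in this comparison, and 2 were past 14-fold, which 0.221% passed. In the wild-type comparison, used for the choice, 14.3% were at least 2-fold higher.

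The order of the genes by response was not the same in both genotypes on these arrays. AT2G21820 came second in wild type, with a log2 difference of 4.68, but last in erf6-1, with 2.196. AT5G07330 came last in wild type, at 3.81, and second in erf6-1, at 4.81 or more. AT3G02480 led in both, at 8.18 or more in erf6-1 and 5.81 in wild type.

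**Figure D2:**
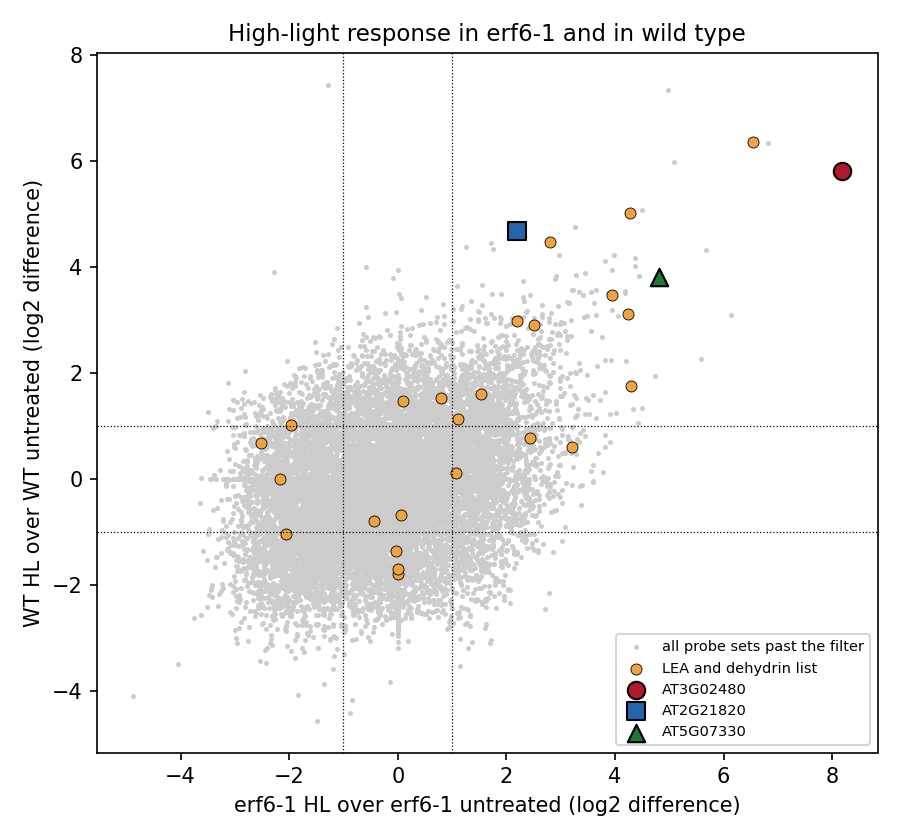
Log2 difference, high light over untreated, in erf6-1 (horizontal) and in wild type (vertical) for the 17173 probe sets past the brightness filter (grey), the 24 measured genes of the LEA and dehydrin list (orange) and the 3 genes (large symbols), with dotted lines at 2-fold. AT3G02480 lies furthest right, at 8.18 and 5.81, a bound in erf6-1, and AT2G21820 lies above AT5G07330 but to its left.

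After high light the genotypes had similar signals for these genes. AT3G02480 was 1.34-fold higher in high-light erf6-1 than in high-light wild type, and AT5G07330 was 1.10-fold higher. AT2G21820 had a log2 difference of -0.18. None reached 2-fold, as was the case for most probe sets in this pair of arrays, where 13.6% differed by 2-fold or more in either direction and 2.95% of those with a high-light signal over 2000 did.

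Without treatment the signals lay further apart. The untreated wild-type signal took part in the choice of the genes, which favoured a low value there. It is used again in this comparison and in the difference between responses. AT2G21820 was 4.97-fold higher in untreated erf6-1 than in untreated wild type, with 749.8 against 151.0. AT3G02480 was at least 3.86-fold lower in untreated erf6-1, with 54.6 against 386.0, and AT5G07330 at least 1.82-fold lower, with 29.1 against 181.9. Differences past 2-fold were common at such signals. The sizes seen in AT2G21820 and AT3G02480 were not ranked among probe sets of like signal. Of all 17173 probe sets, bright and dim, 4.68% were at or above AT2G21820 in this comparison. AT3G02480, a bound, ranked 1088 from the lowest. Between the untreated arrays 43.3% of probe sets differed by 2-fold or more in either direction, 23.7% higher and 19.6% lower in erf6-1. Among the 13005 whose higher untreated signal lay between 100 and 1000, as it did for all 3 genes, 52.3% did, against 16.8% of those above 1000. These signal classes were chosen after the values were seen, and whether the untreated differences would recur in other plants was not tested.

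The response of erf6-1 minus that of wild type was at least 2.37 on the log2 scale for AT3G02480, -2.49 for AT2G21820 and at least 1.00 for AT5G07330. All 3 were past 2-fold, like 47.3% of all probe sets by this measure, 21.7% higher and 25.6% lower. For AT5G07330 the value lay at the threshold, at 2.004-fold, and fell short of it at 1.81-fold after quantile normalisation and 1.78-fold with equal array medians. Each such value is the genotype difference after high light minus that without treatment. For AT2G21820 these parts were -0.18 and 2.31. For AT3G02480 they were 0.42 and -1.95 or lower, and for AT5G07330 0.14 and -0.86 or lower. In each gene the untreated arrays made up most of the difference between responses.

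**Figure D3:**
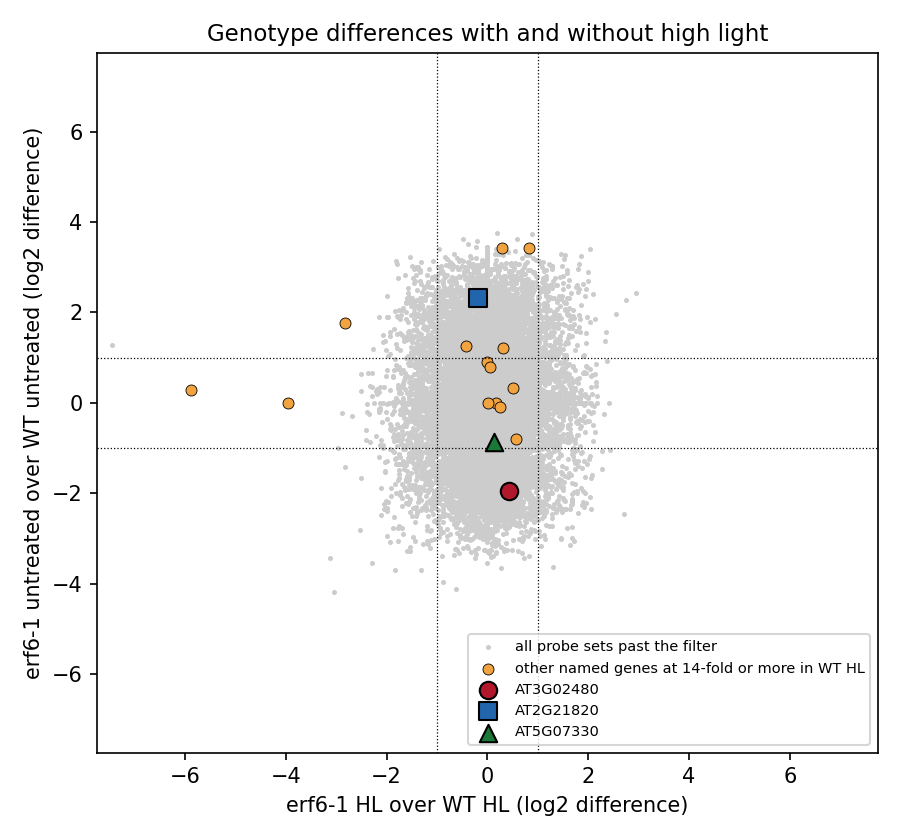
Log2 difference, erf6-1 over wild type, after high light (horizontal) and untreated (vertical), for the 17173 probe sets past the filter (grey), the 14 other named genes at least 14-fold higher in high-light wild type (orange) and the 3 genes (large symbols), with dotted lines at 2-fold. The 3 genes lie near 0 on the horizontal axis, between -0.18 and 0.42, and between -1.95, a bound, and 2.31 on the vertical axis.

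Together with these genes, 17 named genes were at least 14-fold higher in high-light wild type. Of the 14 others, 11 were also at least 2-fold higher in high-light erf6-1 than in untreated erf6-1, 1 was 2-fold lower and 2 were in between. Over all probe sets, 16.7% were 2-fold higher and 29.8% 2-fold lower in this comparison. The log2 differences of the 14 genes in erf6-1 ranged from -2.27, a bound, to 6.54, also a bound, with a median of 3.44. After high light, 3 of the 14 differed by 2-fold or more between the genotypes, and none of the 3 genes described here did. Of all probe sets 13.6% did, and 2.95% of those with a high-light signal over 2000. Without treatment, 5 of the 14 were at least 2-fold higher in erf6-1 than in wild type and 0 were 2-fold lower, against 23.7% and 19.6% of all probe sets. The choice by wild-type response favours low untreated wild-type signals in these genes too.

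The LEA and dehydrin list puts the 3 genes beside the best-known desiccation proteins. It holds 52 genes, of which 32 had a named probe set and 24 passed the brightness filter. The 3 genes are not on it, but whether they belong to these families could not be checked here. The filter takes a gene on its brightest array, so a gene dim without treatment enters only if it is brighter elsewhere. In high-light erf6-1, 13 of the 24 were at least 2-fold higher than in untreated erf6-1 and 4 were 2-fold lower, with a median log2 difference of 1.09. The median of all 17173 probe sets was -0.22, with 16.7% 2-fold higher and 29.8% 2-fold lower. In high-light wild type 13 were 2-fold higher and 4 lower, with a median of 1.08 against -0.13 over all, where 14.3% were 2-fold higher and 23.9% lower. Higher in both genotypes were 10 genes, and 1, AT5G27980, was lower in both. Of all probe sets, 5.51% were 2-fold higher in both and 9.46% 2-fold lower in both.

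The 10 genes included the dehydrins COR47 and LTI30, the chloroplast proteins COR15A and COR15B, the LEA proteins LEA4-5 and LEA18, and M10, alongside 3 loci without a symbol. LEA4-5, a LEA protein that accumulates in water deficit, had signals of 3174 and 167.1 in high-light and untreated erf6-1 and 4229 and 490.0 in high-light and untreated wild type. LEA18 had signals of 1964 and 84.4 in high-light and untreated erf6-1 and 1317 and 389.7 in high-light and untreated wild type. LEA4-5 and LEA18 differed by less than 2-fold between the high-light arrays, like most probe sets. Both had a lower untreated signal in erf6-1 than in wild type. LTI30, COR15B and AT3G17520, also among the 10, had a higher one. Of the 24 measured genes of the list, 5 were at least 2-fold higher in untreated erf6-1 than in untreated wild type and 7 were 2-fold lower. Of all probe sets, 23.7% were higher and 19.6% lower.

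COR47 had signals of 36678 and 2395 in high-light and untreated erf6-1, and 31961 and 2883 in high-light and untreated wild type, so its untreated signals were well above the floor. LTI30 had 11061 and 2416 in high-light and untreated erf6-1, and 9578 and 1208 in high-light and untreated wild type. Across the 10 genes the high-light difference between erf6-1 and wild type lay between -0.42 and 0.58 on the log2 scale, and the untreated one between -1.96, a bound, and 1.25. AT3G15670 had a log2 difference of at least 3.21 in erf6-1, against 0.60 in wild type, and the difference between these responses was not tested. Its signals were 923.0 and 41.1 in high-light and untreated erf6-1, and 371.9 and 245.0 in high-light and untreated wild type.

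**Figure D4:**
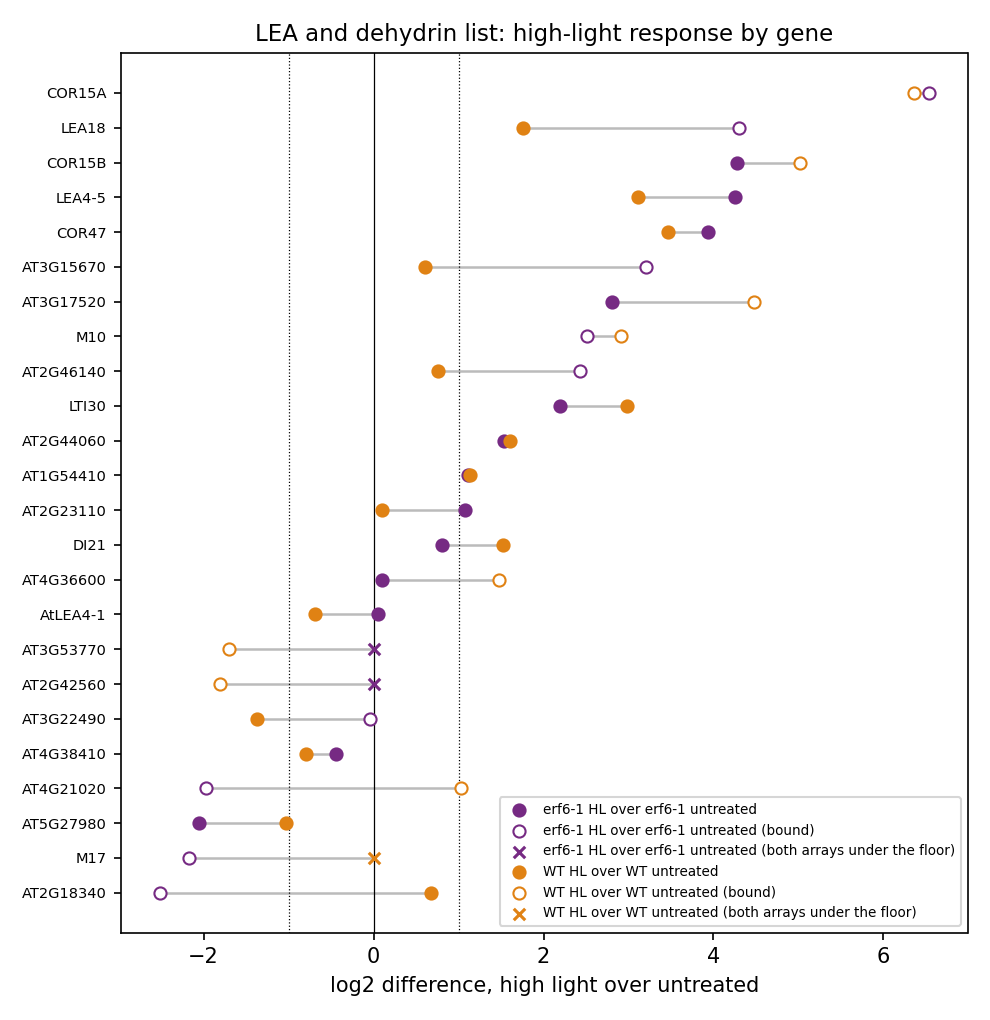
Log2 difference, high light over untreated, for the 24 measured genes of the LEA and dehydrin list in erf6-1 (purple) and wild type (orange), open where 1 array was under the floor (a bound) and crossed where both were. COR15A stands at the top at 6.54 and 6.36, both bounds, and 10 genes lie to the right of the 2-fold line in both genotypes.

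No measured gene of seed storage or oil bodies was 2-fold higher after high light. Of 21 listed, 4 had a named probe set. PAP85, a vicilin-like storage protein, had signals of 62.7 and 45.1 in high-light and untreated erf6-1, and 9.1 and 28.5 in high-light and untreated wild type, all under the floor. OLEO3, an oleosin of oil bodies, had 79.1 and 58.7 in high-light and untreated erf6-1, and 162.5 and 230.4 in high-light and untreated wild type. The other two, AT1G03890 and AT3G01570, passed the filter. AT1G03890 was 2-fold lower in both, and AT3G01570 was 2-fold lower in erf6-1 and under the floor on both wild-type arrays. Both genes reached the filter only on untreated arrays. AT1G03890 had 314.0 in untreated erf6-1 and 274.6 in untreated wild type, and AT3G01570 had 483.2 in untreated erf6-1. The filter thus favoured lower calls over higher ones in these genes. Of all probe sets, 29.8% were 2-fold lower in erf6-1 and 23.9% in wild type. The call of AT1G03890 in erf6-1 was lost after quantile normalisation, with equal medians and with a pseudocount, at log2 differences of -0.49, -0.46 and -0.75. In wild type it stayed past 2-fold, at -1.30 and -1.28 under both scalings, but its signals no longer reached the brightness filter there. The cruciferins, albumins and other seed markers had no named probe set and were not analysed here.

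Of 15 seed regulators 2 were measured. BZIP53, a transcription factor that activates seed maturation genes, had log2 differences of 0.84 in erf6-1 and 0.74 in wild type, with a signal of 3047 in high-light erf6-1 and 3086 in high-light wild type. EEL, a bZIP factor acting on the Em genes of seeds, had a signal of 163.9 in high-light erf6-1 and 73.9 in untreated erf6-1, and 26.7 in high-light wild type and 373.2 in untreated wild type. Of 39 genes of ABA signalling and ABA response, only ALDH7B4, a stress-induced aldehyde dehydrogenase, had a named probe set, with log2 differences of 3.61 in erf6-1 and 3.33 in wild type.

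Markers of tissues were few. RCA, the Rubisco activase of leaves, had signals of 32887 and 40655 in high-light and untreated erf6-1, and 37117 and 58919 in high-light and untreated wild type. PYK10, a root beta-glucosidase, had 18297 and 21338 in high-light and untreated erf6-1, and 15881 and 28679 in high-light and untreated wild type. The root-hair expansins EXPA7 and EXPA18 were both 2-fold lower in high-light erf6-1 than in untreated erf6-1, with log2 differences of -2.41 and -2.12, and stood at -0.92 and 0.60 in wild type. Both pollen markers with a named probe set were below the brightness filter. None of the measured markers was 2-fold higher after high light in either genotype, and their part in the values of the 3 genes was not tested.

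The genes whose pattern was most like each member were found by the distance between log2 signals on the 4 arrays, each gene centred on its own mean, over 9710 named probe sets. Nearest to AT3G02480 was COR15A, at a distance of 1.49, then AT1G05340 at 2.16, the small heat shock protein gene HSP22.0 at 2.50, AT5G07330 at 2.80 and COR15B at 3.06. COR15A had signals of 9280 and 34.6 in high-light and untreated erf6-1, and 8231 and 49.4 in high-light and untreated wild type, so its untreated arrays were both under the floor. Unlike AT3G02480, HSP22.0 had a higher untreated signal in erf6-1 than in wild type, at 461.8 against 247.8. So did COR15B, at 173.5 against 58.9. AT1G05340, at 237.2 against 411.3, and AT5G07330 had a lower one. Nearest to AT5G07330 were AT1G09500 at 0.53, AT1G52560 at 0.56, AT5G45630 at 0.72, COR47 at 0.74 and AT1G05340 at 0.76.

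AT2G21820 had other neighbours in pattern. They were AT3G17520 at 0.79, a gene of the LEA list, AT1G20070 at 0.85, AT5G64250 at 0.86, AT1G11660 at 0.94 and AT1G02816 at 1.06. All 5 had a higher untreated signal in erf6-1 than in wild type, as AT2G21820 did. For AT3G17520 these signals were 238.6 and 38.4. The untreated signals were part of the distance, so this shared direction follows from how the 5 were picked. AT2G21820 lay 4.68 from AT3G02480 and 2.42 from AT5G07330. Seen from AT2G21820, 6769 of the 9710 named probe sets were closer than AT3G02480 and 289 were closer than AT5G07330. Seen from AT3G02480, 58 were closer than AT2G21820. Seen from AT5G07330, 132 were closer than AT2G21820. With 4 arrays, 1 per group, such likeness carries no test.

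**Figure D5:**
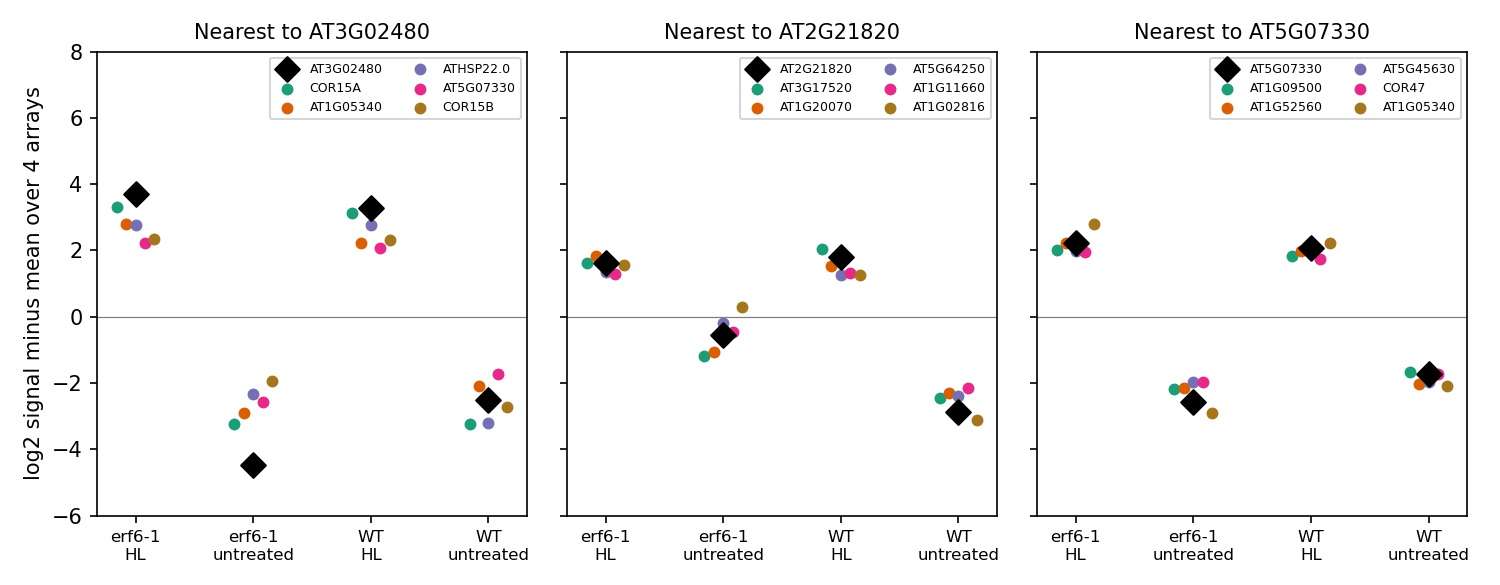
Log2 signal minus the gene's own mean over the 4 arrays, for each member (black diamonds) and the 5 named genes nearest to it (colours, shifted sideways), by array. For AT2G21820 and its neighbours untreated erf6-1 lies above untreated wild type, whereas for AT3G02480 and AT5G07330 themselves untreated erf6-1 lies below untreated wild type. The neighbours were picked on these same signals.

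Values of the genes next to the members on the chromosome are given where they were measured. SAMDC, which makes a precursor of polyamines and precedes AT3G02480, had signals of 6474 and 5012 in high-light and untreated erf6-1, and 6909 and 7813 in high-light and untreated wild type. AT3G02490, which follows AT3G02480, had log2 differences of -0.55 in erf6-1 and -2.98, a bound, in wild type. AT2G21830, which follows AT2G21820, had log2 differences of 0.70 in erf6-1 and 1.61 in wild type. The difference between these responses was -0.91, under 2-fold. Its untreated signal was 434.6 in erf6-1 and 205.9 in wild type. Of all probe sets, 23.7% were 2-fold higher in untreated erf6-1. The high-light signals of AT2G21830 were 705.3 in erf6-1 and 627.0 in wild type. AT5G07340, which follows AT5G07330, had log2 differences of 0.18 in erf6-1 and -0.31 in wild type. Further out, EME1A near AT2G21820 had untreated signals of 146.8 in erf6-1 and 422.3 in wild type. AT3G02460, near AT3G02480, had 402.0 in untreated erf6-1 and 176.6 in untreated wild type. In both, the untreated direction was opposite to that of the member. No neighbour overlapped a member in the reference.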

How the data were processed

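Transcripts of 4 samples were measured on 1 array each. Per the submitters' processing notes, the authors made the deposited intensity values with MAS5; its version and the detection calls are not given in the sources used here. Array medians ranged from 206.6 to 320.6 and 2% trimmed means from 492.8 to 494.7. The number of arrays limits the precision. A description field that names embryos is at odds with the plants and was not used.

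Probe sets were named through the supplied probe table and RefSeq gene table (TAIR10.1); 13436 had 1 gene. No genome build is named for the arrays, so no coordinates are given, and the planned promoter motif search was not made, since no promoter sequences were used here. Signals were floored at 100 and put on the log2 scale with Python 3.11.15 and pandas 2.3.3, probe sets were kept if their highest array reached 248.6, and differences were called at 2-fold. The calculation was tested on simulated data.

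Named genes are the members, the 5 nearest in pattern, 2 genes each side of 14-fold and up to 6 per gene list by size of response; AT5G27980, M10, AT4G21020, the tissue markers and chromosomal neighbours were added after values were seen. Members and lists were chosen with earlier results of these data known. Alternatives were quantile normalisation, equal medians, a pseudocount, a lower floor, no filter and a 3-fold threshold.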

Additional observations from a re-analysis of the deposited data

Results flagged for a closer look

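AT4G21020, a gene of the LEA and dehydrin list, had a lower signal after high light in erf6-1 and a higher one in wild type, with log2 differences of -1.97 and 1.02, both bounds. Its signals were 37.0 and 392.9 in high-light and untreated erf6-1, and 203.4 and 21.8 in high-light and untreated wild type. Only untreated erf6-1 reached the brightness filter of 248.6, so the filter favoured a lower call in erf6-1. The difference between the responses was not tested.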

How the results depend on the processing

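No paired analysis was possible because each group had 1 array. A value of a member counts as moved when it changed by over 1.5 times; of 60 recomputed values of the 3 genes 51 did not move, 9 did and none reversed. With the pseudocount of 100, AT3G02480 in erf6-1 was at 7.56 and AT2G21820 in wild type at 3.99, on the log2 scale; AT5G07330 in wild type was then 9.41-fold higher, and 13.7-fold after quantile normalisation, both under 14-fold. With the floor at the 20th percentile, AT3G02480 and AT5G07330 were at 9.03 and 5.66 in erf6-1, at -2.80 and -1.71 between untreated erf6-1 and wild type, and at 3.22 and 1.85 in the difference between responses. With equal medians, AT2G21820 in erf6-1 was at 2.83.

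With equal medians, 30.4% of all probe sets were 2-fold higher and 17.2% lower in erf6-1 after high light, and 23.9% and 15.4% in wild type. Higher values then made up 63.9% and 60.7% of the calls, 50.6% in both after quantile normalisation, and 35.9% and 37.4% as deposited; the median of all probe sets shifted by 0.55 and 0.29 with equal medians and by 0.22 and 0.13 with quantile normalisation. With the lower floor, 10% were higher and 10.8% lower in high-light erf6-1 than in high-light wild type. At 3-fold the shares higher and lower were 8.35% and 17.6% in erf6-1, 6.22% and 11.3% in wild type, 1.53% and 1.57% between genotypes after high light, 14.4% and 11% without treatment, and 12.2% and 15.9% for the difference between responses.

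In the LEA and dehydrin list, 2 genes were lower in high-light wild type both with equal medians and at 3-fold. Between genotypes after high light, 2 were lower under quantile normalisation, equal medians, the pseudocount and the lower floor, and 0 were higher or lower at 3-fold. Of the 2 measured seed storage genes, 1 was lower in erf6-1 under quantile normalisation, equal medians, the pseudocount and at 3-fold, and 0 in wild type under quantile normalisation, equal medians and at 3-fold. Dim signals limit the untreated comparisons.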
